A study of Mus musculus with 11 samples.

Results

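The cholesterol and fatty acid synthesis genes of mouse naive extra-embryonic endoderm (nEnd) were examined as a list of 29 members, chosen by name from the enzymes of both pathways and their regulators. All 29 were found among the 48952 genes of the sorted bulk RNA-seq table and among the 32285 genes of the single-cell matrices. nEnd is a culture model of primitive endoderm, the layer next to the epiblast in the blastocyst, and the study asked how OCT4 (gene Pou5f1) relates to the ability of these cells to change identity. In bulk, an OCT4-mCherry reporter line without treatment was sorted into cells with the surface receptor PDGFRA only (Pdgfra+), with both PDGFRA and the reporter (DP), or with the reporter only (Oct4+), with 3 libraries each. In single cells, a line homozygous for a 4-hydroxytamoxifen (4OHT)-inducible Oct4 loss of function (Oct4LOF, labelled EPUc) was sorted for PDGFRA. It was then grown without 4OHT (-4OHT), or given 4OHT first and moved to medium without it before collection (+4OHT), with 1 library each. All samples were DAPI-negative cells from nEnd, which is grown over mouse embryonic fibroblast feeders in RACL medium, which holds Activin A, the GSK3 inhibitor CHIR99021 and LIF. Each experiment used 1 cell line. The study calls the bulk libraries biological replicates, and the sources do not say whether they came from separate cultures, so p-values measure only the spread between these samples.

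Cells build cholesterol from acetyl-CoA through mevalonate, isoprenoids, squalene and a series of sterol ring changes, and they build fatty acids through malonyl-CoA, after which desaturases and elongases shape the chain. SREBP transcription factors, encoded by Srebf1 and Srebf2, drive most of these genes when membranes are poor in sterol, and INSIG1 holds the SREBP precursors back in the endoplasmic reticulum when sterol is plentiful. Early visceral and parietal endoderm are known for secretion and for lipid uptake and transport to the embryo.

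SREBPs are known to act at such promoters together with NF-Y, which binds CCAAT, and with Sp1, which binds GGGCGG. RefSeq promoters (GRCm38.p6, 250 bases before to 50 after each annotated start) matched 23 of the 29 members, and the missing entries were Fdps, Fdft1, Sqle, Scd1, Scd2 and Fads1. CCAAT on either strand was found for 20 of the 23 members (87%), beside 41.1% of the 27025 genes in the table and 37.4% of its 32851 promoters. The exceptions were Acaca, Elovl6 and Fads2. GGGCGG was found for 18 members (78.3%), beside 38.2% of genes and 35.7% of promoters. The E-box CACGTG was found for 5 members (21.7%), beside 8.09% of genes and 7.15% of promoters. The SREBP core TCACNCCAC was found for Hmgcs1 alone (4.35%), beside 1.44% of genes and 1.24% of promoters. These matches describe letters in a window and were not tested for binding. The stretches upstream of 5 members are shown because they span the range from a promoter rich in CCAAT to one without it. Capitals mark CCAAT, its reverse complement ATTGG, and the TCACNCCAC core, and each is written 5′ to 3′ on the strand of its gene. Each begins 250 bases before the RefSeq start and stops before the first base of the gene in GENCODE, which leaves 250 bases for Hmgcs1 and Mvk, 214 for Hsd17b7, 201 for Insig1 and 219 for Elovl6.
Hmgcs1, chr13:119690101-119690350, plus strand: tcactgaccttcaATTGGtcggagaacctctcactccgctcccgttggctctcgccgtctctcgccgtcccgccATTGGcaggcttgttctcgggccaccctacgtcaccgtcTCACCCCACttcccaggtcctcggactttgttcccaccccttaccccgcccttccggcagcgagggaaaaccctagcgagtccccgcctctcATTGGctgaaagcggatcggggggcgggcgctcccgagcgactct
Mvk, chr5:114444019-114444268, plus strand: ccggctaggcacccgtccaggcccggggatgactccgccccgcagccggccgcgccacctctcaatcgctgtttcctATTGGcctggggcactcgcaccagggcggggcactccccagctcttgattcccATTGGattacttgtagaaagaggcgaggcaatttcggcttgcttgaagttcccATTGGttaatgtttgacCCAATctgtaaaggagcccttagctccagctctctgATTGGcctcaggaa
Hsd17b7, chr1:169969242-169969455, minus strand: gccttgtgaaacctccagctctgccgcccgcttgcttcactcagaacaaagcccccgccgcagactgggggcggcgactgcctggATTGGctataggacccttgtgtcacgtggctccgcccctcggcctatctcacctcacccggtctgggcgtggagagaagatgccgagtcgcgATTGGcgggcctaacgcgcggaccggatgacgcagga
Insig1, chr5:28071162-28071362, plus strand: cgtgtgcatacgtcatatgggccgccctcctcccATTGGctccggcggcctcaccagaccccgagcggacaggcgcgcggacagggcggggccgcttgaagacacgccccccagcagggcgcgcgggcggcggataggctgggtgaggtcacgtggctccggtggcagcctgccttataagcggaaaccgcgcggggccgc
Elovl6, chr3:129532136-129532354, plus strand: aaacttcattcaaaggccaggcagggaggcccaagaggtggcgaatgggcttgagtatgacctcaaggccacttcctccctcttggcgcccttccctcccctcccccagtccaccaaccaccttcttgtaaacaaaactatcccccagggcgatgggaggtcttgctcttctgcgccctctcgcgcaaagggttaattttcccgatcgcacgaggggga
The Elovl6 stretch holds none of the marked letters.

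The bulk libraries held 8019631 to 11642571 counts. The sorts differed in cell identity markers: 11 endoderm markers summed to 60910 to 79660 counts per 1000000 (CPM) in Pdgfra+, 39580 to 64670 in DP and 432.7 to 922.7 in Oct4+, while 8 epiblast markers summed to 46.97 to 61.28, 282 to 616.6 and 3271 to 4372 CPM. The 5 markers of 2-cell-like cells were at 231.3 to 917.2 CPM in Oct4+ and at most 13.45 CPM elsewhere. The 8 feeder fibroblast markers reached 152.9 CPM in Oct4+ replicate 1 and at most 15.76 CPM in Pdgfra+ and 10.15 CPM in DP, and the 6 trophectoderm markers stayed between 6.774 and 34.58 CPM. The part these markers play in the lipid gene differences was not tested. In bulk samples, fewer cells of a type and less RNA per cell cannot be told apart.

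The 29 members together took 7564, 8823 and 8885 CPM in Pdgfra+, 7298, 9601 and 9515 CPM in DP, and 6380, 4799 and 4576 CPM in Oct4+. Every library with PDGFRA was thus above every Oct4+ library. DP had the highest group mean for 21 members, Pdgfra+ for 6 (Hsd17b7, Insig1, Srebf1, Scd2, Fads1 and Fads2) and Oct4+ for 2 (Fdps and Elovl6). This ranks means only, and the same count over all genes was not made. Some means were close, as for Tm7sf2 (34.7 CPM in DP and 33.9 in Pdgfra+) and Fdps (14.8 in Oct4+ and 14.3 in DP). Only Elovl6 was called between DP and Pdgfra+. Per kilobase of exon, Scd2 was the most abundant member in all 3 groups, at 357 CPM per kb in Pdgfra+, 278 in DP and 144 in Oct4+, and Insig1 (199 per kb) came next in Pdgfra+.

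Against Oct4+, 18 members were higher and 1 was lower in DP by edgeR's quasi-likelihood test with Benjamini-Hochberg adjusted p below 0.05, where 28.3% of the 14185 genes tested were called higher and 27.9% lower. The members' median log2 fold change was 0.83, beside -0.04 over all genes. In 17 members the 3 DP libraries were all above the 3 Oct4+ libraries, a pattern found in 30.7% of genes. In Oct4+ against Pdgfra+, 13 members were lower and 1 was higher, where 31.5% of genes were called lower and 31.8% higher. Here the median was -0.51, beside 0.01 over all genes, and 15 members had all Oct4+ libraries below all Pdgfra+ libraries, as did 34.5% of genes. In DP against Pdgfra+, Elovl6 was the 1 member called, where 6.87% of genes were called in either direction, and the median was 0.23 beside 0.02. That median was 0.13 without DP replicate 2 or without Pdgfra+ replicate 1, 0.15 without DP replicate 3 and 0.38 without DP replicate 1. The 3 comparisons share libraries, so they are not independent of each other.

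**Figure D1:**
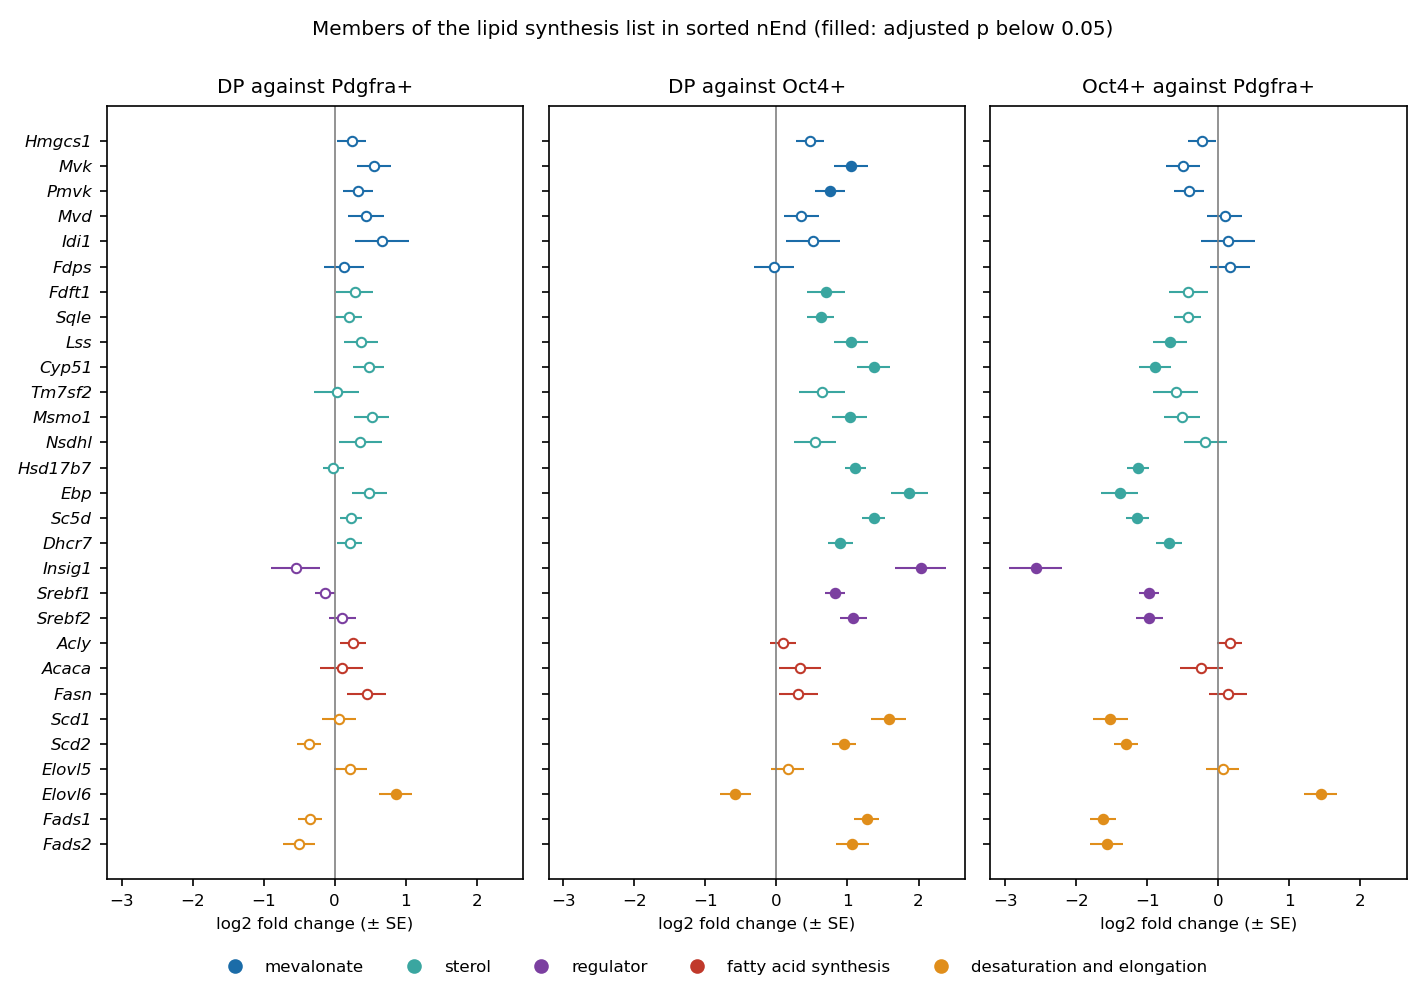
Log2 fold change (x axis, with SE) of each of the 29 members (y axis) in the 3 bulk comparisons, on a common scale, coloured by role, with filled points where adjusted p was below 0.05. Most sterol steps, the regulators and the desaturases lie to the right in DP against Oct4+ and to the left in Oct4+ against Pdgfra+, Acly, Acaca and Fasn lie near 0, and Elovl6 lies on the opposite side.

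How far the Oct4+ comparisons lie from 0 depended on scaling. With no scaling factor the median of all genes moved by -0.25 in DP against Oct4+ and by 0.28 in Oct4+ against Pdgfra+, and the share of calls that were higher went from 50.4% to 37.5% and from 50.2% to 62.1%. Relative to the median of all genes, which a scaling factor moves together with the members, the members' median was 0.87 and -0.52. Members called then numbered 16 (15 higher) and 13 (11 lower).

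Insig1 had the largest fold change of the 29 members in both comparisons with Oct4+. All 3 regulators were called lower in Oct4+ than in Pdgfra+ and higher in DP than in Oct4+. Beside them, 31.5% and 28.3% of all genes were called in those directions. Insig1 (chr5:28071363-28078662, plus strand, GRCm38) was at 760, 429 and 657 CPM in Pdgfra+, 629, 222 and 411 CPM in DP, and 131, 93.3 and 85.0 CPM in Oct4+. Every Oct4+ library was below every other library, while Pdgfra+ and DP overlapped. Its level in Oct4+ was 5.96-fold below Pdgfra+ (log2 -2.57 ± 0.37 SE, adjusted p = 0.000195) and 4.07-fold below DP (log2 2.03 ± 0.36 SE for DP, adjusted p = 0.000969).

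Srebf2, whose product mainly drives sterol genes, averaged 618 ± 68.1 CPM in Pdgfra+, 667 ± 90.4 in DP and 315 ± 78.0 in Oct4+ (SD, n = 3). Its libraries read 547, 683 and 623 CPM in Pdgfra+, 563, 717 and 721 in DP, and 403, 288 and 255 in Oct4+. Oct4+ was again separate from both PDGFRA-positive sorts, at 1.96-fold below Pdgfra+ (adjusted p = 0.00129) and 2.12-fold below DP (adjusted p = 0.000872). Srebf1, whose product mainly drives fatty acid genes, was at 281, 266 and 307 CPM in Pdgfra+, 247, 234 and 292 in DP, and 167, 141 and 128 in Oct4+. It too was separate, at log2 -0.97 ± 0.14 SE against Pdgfra+ (adjusted p = 0.00023) and 0.83 ± 0.14 SE for DP against Oct4+ (adjusted p = 0.000784).

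Of the 6 mevalonate steps, 2 were called higher in DP than in Oct4+, where 28.3% of all genes were. These were Mvk, mevalonate kinase, and Pmvk, phosphomevalonate kinase. None of the 6 passed in Oct4+ against Pdgfra+, where 31.5% of genes were called lower and 31.8% higher. In that comparison 0 were at an unadjusted p below 0.05 and DESeq2 also called 0. Mvk was called there in 2 of 14 alternatives, without Pdgfra+ replicate 1 (log2 -0.64, adjusted p = 0.0486) and with no filter on low counts. Hmgcs1, which makes HMG-CoA, was at 287, 391 and 349 CPM in Pdgfra+, 305, 464 and 447 in DP, and 345, 283 and 248 in Oct4+. The 3 groups overlapped, and log2 0.47 ± 0.20 SE for DP against Oct4+ did not pass (adjusted p = 0.0623), although it did in 3 of 14 alternatives, among them the fits without DP replicate 1 (log2 0.68, adjusted p = 0.0133) and without Oct4+ replicate 1. Mvk read 54.1, 96.6 and 92.1 CPM in DP and 44.3, 37.5 and 35.5 CPM in Oct4+, with no overlap (log2 1.05 ± 0.24 SE, adjusted p = 0.00395). Mvd and Idi1, the next enzymes in the chain, and Fdps, which makes farnesyl diphosphate, had log2 values of 0.35, 0.52 and -0.04 in the same comparison and did not pass. Fdps and Idi1 have near-identical stretches in 5 and 3 other genes, so their values are uncertain. The median of the 6 was 0.50 in DP against Oct4+ and -0.07 in Oct4+ against Pdgfra+, where Hmgcs1 was at -0.23 and turned to 0.02 and 0.05 with upper-quartile and no scaling.

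Of the 11 members that make squalene or act from it to cholesterol, 9 were called higher in DP than in Oct4+. That call was made for 28.3% of all genes, and the median log2 fold change of the 11 was 1.03. In Oct4+ against Pdgfra+, 6 were called lower, beside 31.5% of all genes, and the median of the 11 was -0.68. These 6 were Lss, Cyp51, Hsd17b7, Ebp, Sc5d and Dhcr7. All 11 lay on the same side in both comparisons, except that Nsdhl, which was not called, turned from -0.18 to 0.07 and 0.09 in Oct4+ against Pdgfra+ with upper-quartile and no scaling. Ebp, the sterol isomerase, was at 77.8, 112 and 94.6 CPM in Pdgfra+, 92.9, 146 and 159 in DP, and 30.9, 28.8 and 49.2 in Oct4+. All Oct4+ libraries were below all others, 3.67-fold below DP (log2 1.87 ± 0.26 SE for DP, adjusted p = 0.000243) and 2.61-fold below Pdgfra+ (adjusted p = 0.00109).

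Hsd17b7, a 3-ketosteroid reductase of the pathway, had closely spaced libraries, at 49.8, 59.7 and 59.8 CPM in Pdgfra+, 49.4, 60.8 and 57.2 in DP, and 26.9, 22.9 and 27.8 in Oct4+. The PDGFRA-positive sorts overlapped, and Oct4+ was 2.16-fold below DP (adjusted p = 0.000205). Cyp51, the lanosterol demethylase, averaged 309 ± 63.4 CPM in Pdgfra+, 431 ± 113 in DP and 167 ± 25.1 in Oct4+ (SD, n = 3), and the desaturase gene Sc5d averaged 96.3 ± 8.79, 113 ± 13.4 and 43.6 ± 7.19 CPM. Both were 2.58-fold higher in DP than in Oct4+ (adjusted p = 0.000611 and 6.88e-05).

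Sqle, the oxygen-using step from squalene and a known control point, was at 234, 330 and 287 CPM in Pdgfra+, 240, 369 and 367 in DP, and 235, 212 and 187 in Oct4+. DP was above Oct4+ in every library (log2 0.62 ± 0.19 SE, adjusted p = 0.0198), a call lost in 6 of 14 alternatives, and Oct4+ against Pdgfra+ did not pass (log2 -0.43 ± 0.19 SE, adjusted p = 0.0775). Fdft1, squalene synthase, passed in DP against Oct4+ (log2 0.70, adjusted p = 0.0443), but its annotation shares 774 identical bases with Ctsb, whose mean went from 611 and 631 CPM in Pdgfra+ and DP to 106 CPM in Oct4+, so its value is uncertain.

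The 3 genes of fatty acid synthesis were not called in any comparison. In DP against Pdgfra+, 6.87% of all genes were called in either direction. Against Oct4+, 28.3% were called higher and 27.9% lower in DP. Oct4+ against Pdgfra+ had 31.8% called higher and 31.5% lower. In Oct4+ against Pdgfra+ none of the 3 was at an unadjusted p below 0.05 and DESeq2 called 0, while Acly was called with no scaling factor (log2 0.44, adjusted p = 0.0471). Acly, which supplies cytosolic acetyl-CoA, had log2 values of 0.26, 0.09 and 0.16 in DP against Pdgfra+, DP against Oct4+ and Oct4+ against Pdgfra+, the second turning to -0.13 and -0.15 with upper-quartile and no scaling. Acaca, the committed acetyl-CoA carboxylase step, was at 38.8, 53.5 and 55.3 CPM in Pdgfra+, 34.2, 72.9 and 50.8 in DP, and 55.3, 39.3 and 30.4 in Oct4+, so the groups overlapped. Its values are uncertain, because a processed pseudogene, Gm5182, matches it over 6118 bases at 99.2% identity. Fasn, fatty acid synthase, was at 617, 816 and 652 CPM in Pdgfra+, 643, 1280 and 922 in DP, and 1000, 751 and 538 in Oct4+, also overlapping. The SEs of the log2 fold changes were 0.27 to 0.30 for Fasn and Acaca, and a p that missed the threshold does not show that the levels were alike.

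Desaturation and elongation split by enzyme. Scd1, Scd2, Fads1 and Fads2 were called higher in DP than in Oct4+ and lower in Oct4+ than in Pdgfra+. Elovl6 went the other way in both, and Elovl5 (elongation of polyunsaturated chains) was not called. In DP against Oct4+, 28.3% of all genes were called higher and 27.9% lower. In Oct4+ against Pdgfra+, 31.5% were called lower and 31.8% higher. Scd1, a stearoyl-CoA desaturase, was at 534, 662 and 589 CPM in Pdgfra+, 480, 679 and 705 in DP, and 289, 147 and 187 in Oct4+. Oct4+ was separate, 2.99-fold below DP (adjusted p = 0.000444) and 2.87-fold below Pdgfra+ (adjusted p = 0.000435). Scd2, its neighbour on chromosome 19 with a gap of 87.6 kb, was at 1730, 1900 and 2210 CPM in Pdgfra+, 1420, 1370 and 1760 in DP, and 939, 692 and 734 in Oct4+. Oct4+ was 2.47-fold below Pdgfra+ (log2 -1.30 ± 0.17 SE, adjusted p = 0.000107).

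Fads1 and Fads2, the desaturases for polyunsaturated fatty acids, also lie near each other on chromosome 19, with a gap of 81.1 kb. Fads1 was at 299, 347 and 430 CPM in Pdgfra+, 246, 303 and 293 in DP, and 134, 118 and 97.0 in Oct4+. Its Oct4+ libraries were below all others, 3.08-fold below Pdgfra+ (log2 -1.62 ± 0.18 SE, adjusted p = 3.71e-05) and 2.41-fold below DP. Fads2 was at 120, 194 and 179 CPM in Pdgfra+, 103, 138 and 107 in DP, and 64.2, 60.4 and 41.1 in Oct4+. It showed the same separation, 2.97-fold below Pdgfra+ (adjusted p = 0.000219) and 2.10-fold below DP (adjusted p = 0.00265).

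Elovl6 (chr3:129532355-129638495, plus strand, GRCm38), which lengthens palmitate to stearate, ran in the reverse order. Its libraries were at 115, 129 and 139 CPM in Pdgfra+, 174, 304 and 217 in DP, and 443, 286 and 310 in Oct4+. Pdgfra+ was below every other library, and DP and Oct4+ overlapped. Oct4+ was 2.71-fold above Pdgfra+ (log2 1.44 ± 0.23 SE, adjusted p = 0.000369), which held in all 14 alternatives. DP was 1.81-fold above Pdgfra+ (adjusted p = 0.0495), and this call was lost in 5 of the 6 fits that left out a library (adjusted p = 0.115 to 0.167), all but the fit without DP replicate 1. DP was 1.49-fold below Oct4+ (adjusted p = 0.0477), a call held in 8 of 14 alternatives.

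**Figure D2:**
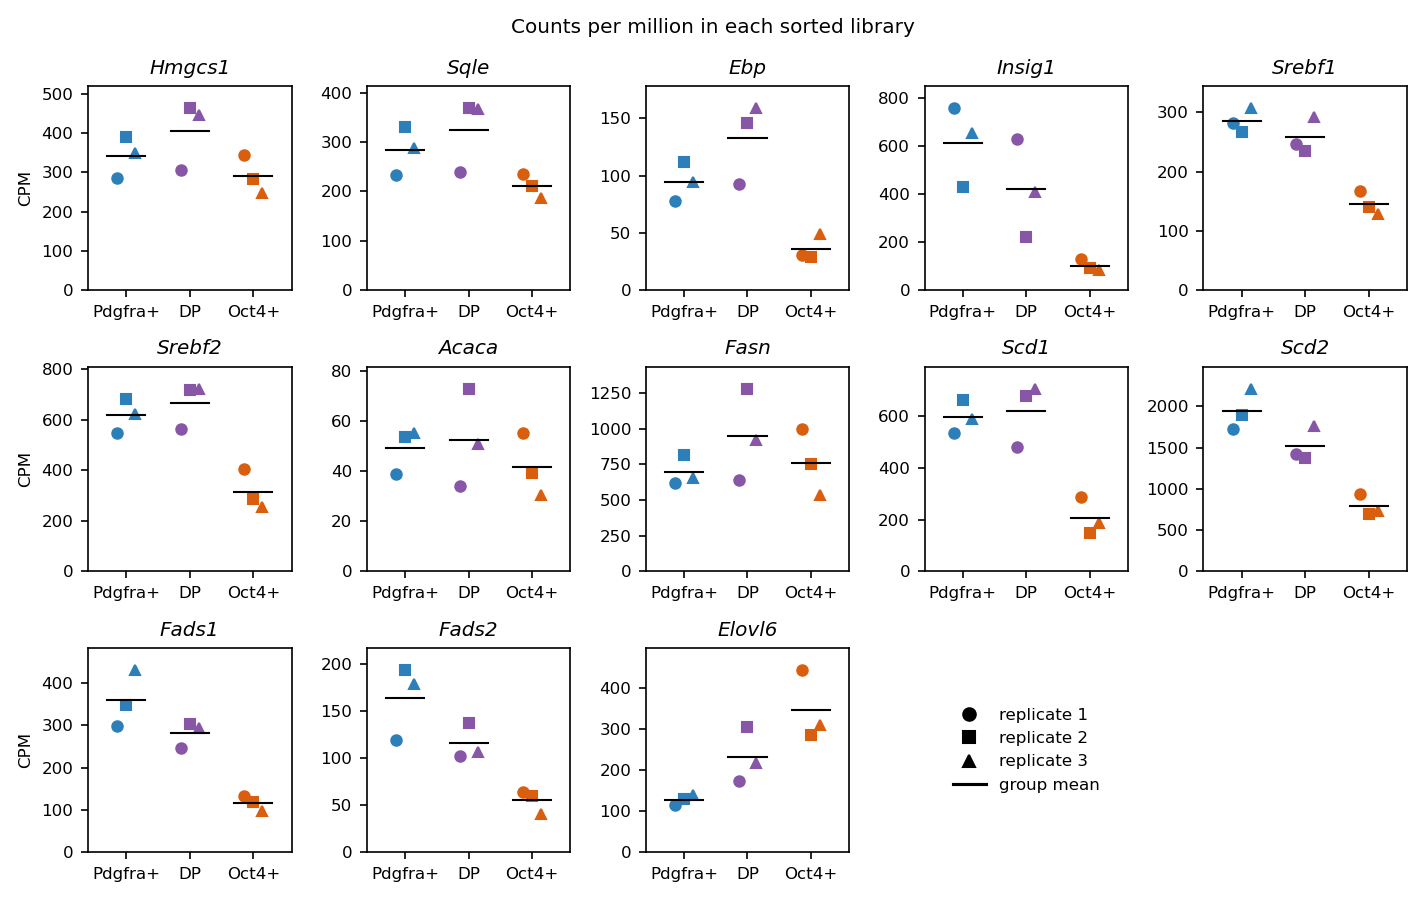
CPM (y axes, from 0) of 13 members in each of the 9 sorted libraries, by sort group (x axis), with 1 symbol per replicate number and a line at the group mean. For Insig1, Ebp, Srebf1, Srebf2, Scd1, Scd2, Fads1 and Fads2 all Oct4+ libraries lie below the others, for Hmgcs1, Acaca and Fasn the groups overlap, and for Elovl6 the Pdgfra+ libraries are lowest.

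Within the PDGFRA-positive sorts, libraries with the same replicate number deviated together from their group means (processing section), so DP and Pdgfra+ were also compared by number. DP was higher in all 3 numbers for 17 members, lower in all 3 for 5 (Insig1, Srebf1, Scd2, Fads1 and Fads2) and mixed for 7, where 31.6% of genes were higher and 30.8% lower in all 3 numbers. Elovl6 differed by log2 0.59, 1.23 and 0.64, and Insig1 by -0.27, -0.95 and -0.68. With the replicate number as a block, 8 members were called. The 6 higher in DP were Mvk (log2 0.54), Cyp51 (0.48), Msmo1 (0.50), Nsdhl (0.37), Ebp (0.48) and Elovl6 (0.84), with adjusted p between 0.0209 and 0.0492, where 10.4% of genes were called higher. The 2 lower in DP were Insig1 (log2 -0.62, adjusted p = 0.0325) and Fads2 (log2 -0.47, adjusted p = 0.0445), where 9.86% were called lower. Of these 8, only Elovl6 passed without the block.

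Genes around the pathway were grouped in lists by function. Their counts stand beside 28.3% of all genes called higher in DP than in Oct4+. In Oct4+ against Pdgfra+, 31.5% of all genes were called lower and 31.8% higher. In DP against Pdgfra+, 6.87% were called in either direction. Of 16 other synthesis genes, 10 were higher in DP than in Oct4+, led by the elongases Elovl7 (log2 3.62) and Elovl1 (2.93) and by Me1, which makes NADPH (2.82). In Oct4+ against Pdgfra+, 10 of them were lower and 1 was higher, Acacb, the mitochondrial acetyl-CoA carboxylase (log2 2.26, adjusted p = 0.000798). Acacb was also higher in DP than in Pdgfra+ (log2 1.60, adjusted p = 0.0442), and Hacd3, of the elongation cycle, was lower (-0.75, adjusted p = 0.0328). Of 4 SREBP control genes, Mbtps2 (log2 -0.99) and Mbtps1 (-0.69), the proteases that release SREBPs, and Scap (-0.55), their escort, were lower in Oct4+ than in Pdgfra+, and Scap was higher in DP than in Oct4+ (log2 0.40, adjusted p = 0.0406). Of the 5 sterol export and storage genes tested, Soat1, which esterifies cholesterol, and Abca1, which exports it, were lower in Oct4+ than in Pdgfra+ (log2 -2.88 and -1.77) and higher in DP than in Oct4+ (2.70 and 1.47).

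Of 15 fatty acid oxidation genes, 8 were lower and 2 higher in Oct4+ than in Pdgfra+, beside 31.5% and 31.8% of all genes. Their median log2 fold change was -0.52, close to the members' -0.51. The largest changes were in Cpt1a, the entry step into mitochondria, which rose (log2 3.04, adjusted p = 0.000358), and in Cpt2 and Acaa2, which fell (log2 -1.86 and -1.84). In DP against Oct4+, 7 were higher and none lower, where 28.3% of genes were called higher and 27.9% lower. The dehydrogenase Acadl led (log2 2.39), and the median was 0.51, beside 0.83 for the members. In DP against Pdgfra+, 6.87% of genes were called in either direction. Here Cpt1a (log2 2.28, adjusted p = 0.0254) and Acadl (1.32, adjusted p = 0.0298) were higher and Acaa2 was lower (-1.80, adjusted p = 0.0412).

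The single-cell libraries held 6896 barcodes (-4OHT) and 7283 barcodes (+4OHT), 21 of which occur in both. Endoderm cells, defined by Sparc, Col4a1 and Col4a2 summing to 3000 or more UMIs (unique molecular identifiers) per 1000000 UMIs of the cell, written UPM below, made up 1586 barcodes (23%) and 6825 barcodes (93.7%). Other cells numbered 5310 and 458, and the latter were shallow, with a median of 2632 UMIs beside 12080 to 15990 in the remaining pools. Barcodes with fewer than 1000 genes or more than 10% mitochondrial UMIs were kept in these pools. They numbered 206 endoderm and 1366 other barcodes without 4OHT, and 733 and 251 with 4OHT. Pou5f1, the targeted gene, was at 16.1 UPM (95% interval 14.6 to 17.8) in -4OHT endoderm cells and 2.21 (1.92 to 2.54) in +4OHT endoderm cells, 7.28-fold lower, and at 46.9 and 17.2 in other cells. With 1 library per condition there is no test, and all intervals given for these pools cover counting error only.

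In both libraries the members were higher in endoderm cells than in other cells. Summed over the 29, they took 3400 UPM in -4OHT endoderm cells and 2070 in -4OHT other cells, and 3130 and 1650 with 4OHT. Without 4OHT, 28 members were higher in endoderm cells, 21 by at least 1.5-fold, where 28.4% of genes were, and 1 was lower by that much, where 17.5% of genes were. The members' median log2 ratio was 0.78, beside 0.04 for all genes. With 4OHT, 24 members were higher by at least 1.5-fold (26.0% of genes) and 1 was lower (20.2% of genes), and the median was 0.98 beside 0.03.

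Insig1 led in both, at 172 UPM in endoderm cells and 39.3 in other cells without 4OHT, a ratio of 4.37 (interval 4.17 to 4.57), and 5.01 with 4OHT. Sterol steps followed without 4OHT, with Sc5d at a ratio of 2.95 and Cyp51 at 2.37, as did Fads1 at 2.44 and Mvk at 2.40. Elovl6 was the member lower in endoderm cells, at 108 against 171 UPM (ratio 0.633, interval 0.607 to 0.659) without 4OHT and 54.7 against 177 with it (ratio 0.31). The 8 epiblast markers summed to 1810 UPM in -4OHT other cells and 265 in +4OHT other cells, which also held trophectoderm markers at 157 and 2-cell-like markers at 139 UPM. The pool of other cells is therefore of a different makeup in each library.

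**Figure D3:**
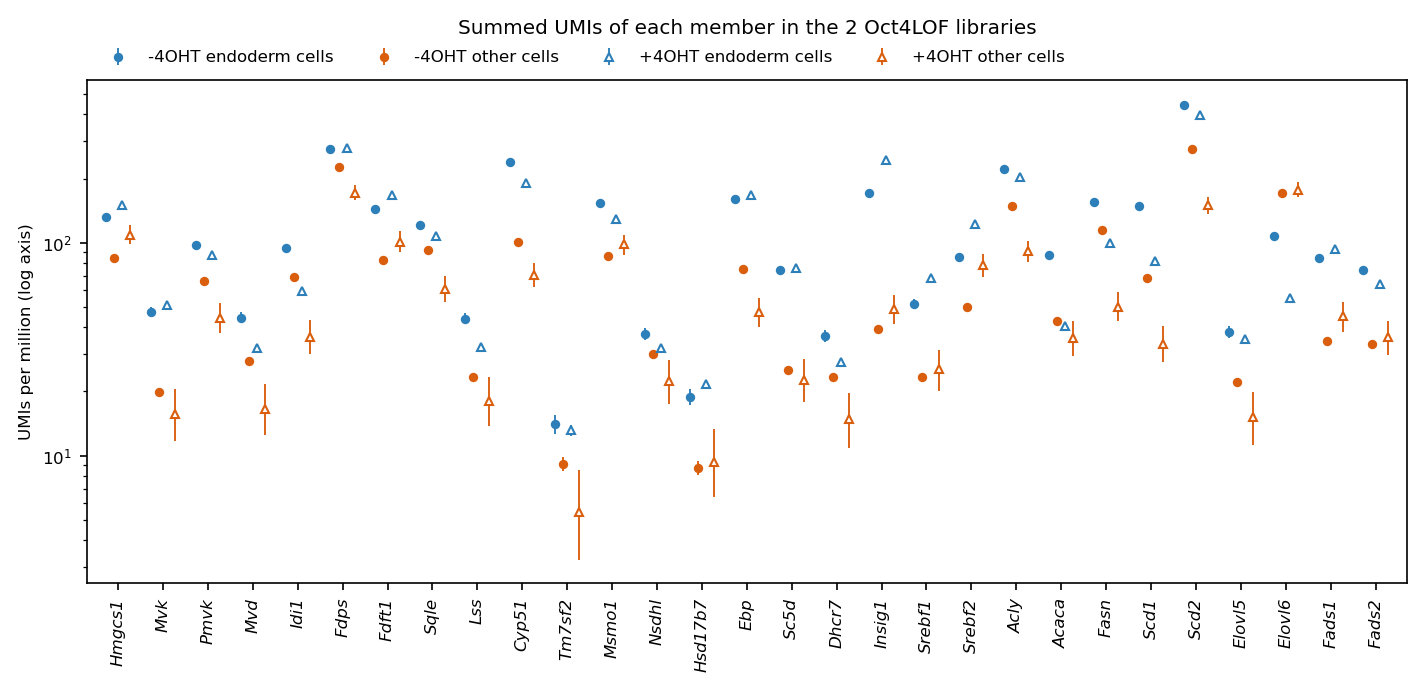
Summed UPM of each member (y axis, log scale) in endoderm cells (blue) and other cells (orange) of the -4OHT library (filled circles) and the +4OHT library (open triangles), with 95% counting intervals. The blue symbols lie above the orange symbols of the same library for 28 members, and for Elovl6 they lie below.

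By sign alone, 22 members were higher both in Pdgfra+ than in Oct4+ and in -4OHT endoderm cells than in other cells. Elovl6 was lower in both. Of the 22, 13 were called between Pdgfra+ and Oct4+, and Hmgcs1, Acaca and Nsdhl changed sign in bulk with scaling. The remaining 6 (Mvd, Idi1, Fdps, Acly, Fasn and Elovl5) were higher in endoderm cells, and none of them was called between Pdgfra+ and Oct4+. The same count over all genes was not made. The experiments used different lines, and the pool of other cells is not the Oct4+ sort.

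**Figure D4:**
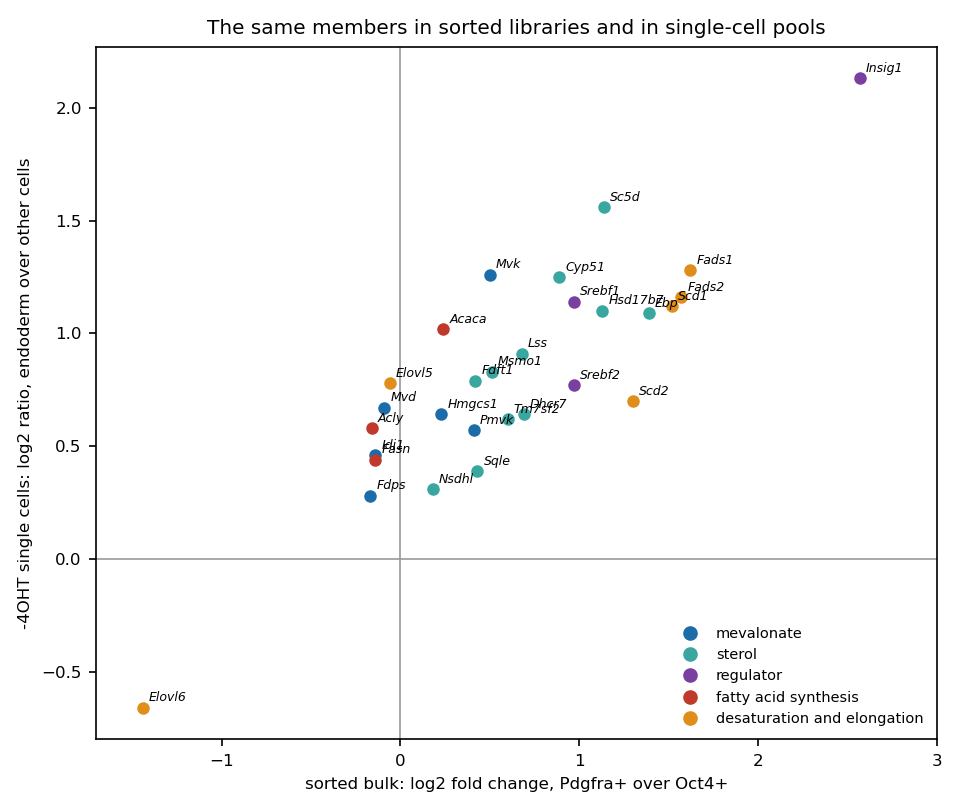
Each member's log2 fold change of Pdgfra+ over Oct4+ in bulk (x axis) against its log2 ratio of endoderm over other cells in the -4OHT library (y axis), coloured by role. Insig1 lies farthest to the upper right (2.13 on the y axis), and Elovl6 lies alone at the lower left.

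Between the libraries, endoderm cells with 4OHT had 5 members lower by at least 1.5-fold, where 8.83% of genes were, and 0 members higher by that much, where 21.9% of genes were. The median over the members was -0.16, beside 0.15 for all genes. The 5 were Acaca, which went from 87.1 to 40.7 UPM (ratio 0.467, interval 0.443 to 0.492), Elovl6 from 108 to 54.7 (0.506, 0.483 to 0.530), Scd1 from 148 to 81.7 (0.552, 0.531 to 0.574), Idi1 from 94.8 to 59.4 (0.627, 0.597 to 0.658) and Fasn from 156 to 99.6 (0.638, 0.615 to 0.662). Hmgcs1 was at 132 and 150 (ratio 1.14).

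The regulators lay on the other side. Insig1 went from 172 to 244 UPM (ratio 1.42, interval 1.37 to 1.47), Srebf2 from 85.2 to 123 (1.44) and Srebf1 from 51.6 to 68.1 (1.32). Scd2 (444 and 398) and Sqle (121 and 108) had ratios of 0.896 and 0.891. By role, the summed level went from 691 to 658 UPM for mevalonate steps, 1040 to 967 for sterol steps, 308 to 434 for regulators, 464 to 344 for fatty acid synthesis and 897 to 727 for desaturation and elongation.

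Epiblast markers also differed between the endoderm pools. The 8 markers, which include the targeted gene Pou5f1, summed to 291 UPM in -4OHT endoderm cells and 27.6 in +4OHT endoderm cells. They were at 200 UPM or more in 509 (32.1%) and 131 (1.92%) of the barcodes. Without those barcodes, a step chosen after seeing the data, 1077 and 6694 barcodes remained and 3 members were past 1.5-fold, Acaca (log2 -0.97 instead of -1.10), Scd1 (-0.81 instead of -0.86) and Elovl6 (-0.69 instead of -0.98). Idi1 was then at -0.53 and Fasn at -0.47. Insig1 went from a log2 ratio of 0.51 to 0.15, Srebf1 from 0.40 to 0.26 and Srebf2 from 0.53 to 0.48. The 11 endoderm markers summed to 15300 and 23500 UPM, but these sums include Sparc, Col4a1 and Col4a2, which define the pools. Sparc alone was at 7330 and 11100 UPM. Of the 11, 10 were higher with 4OHT and Dab2 was lower (917 and 481 UPM). The part of these markers was not tested. No doublet caller was run.

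**Figure D5:**
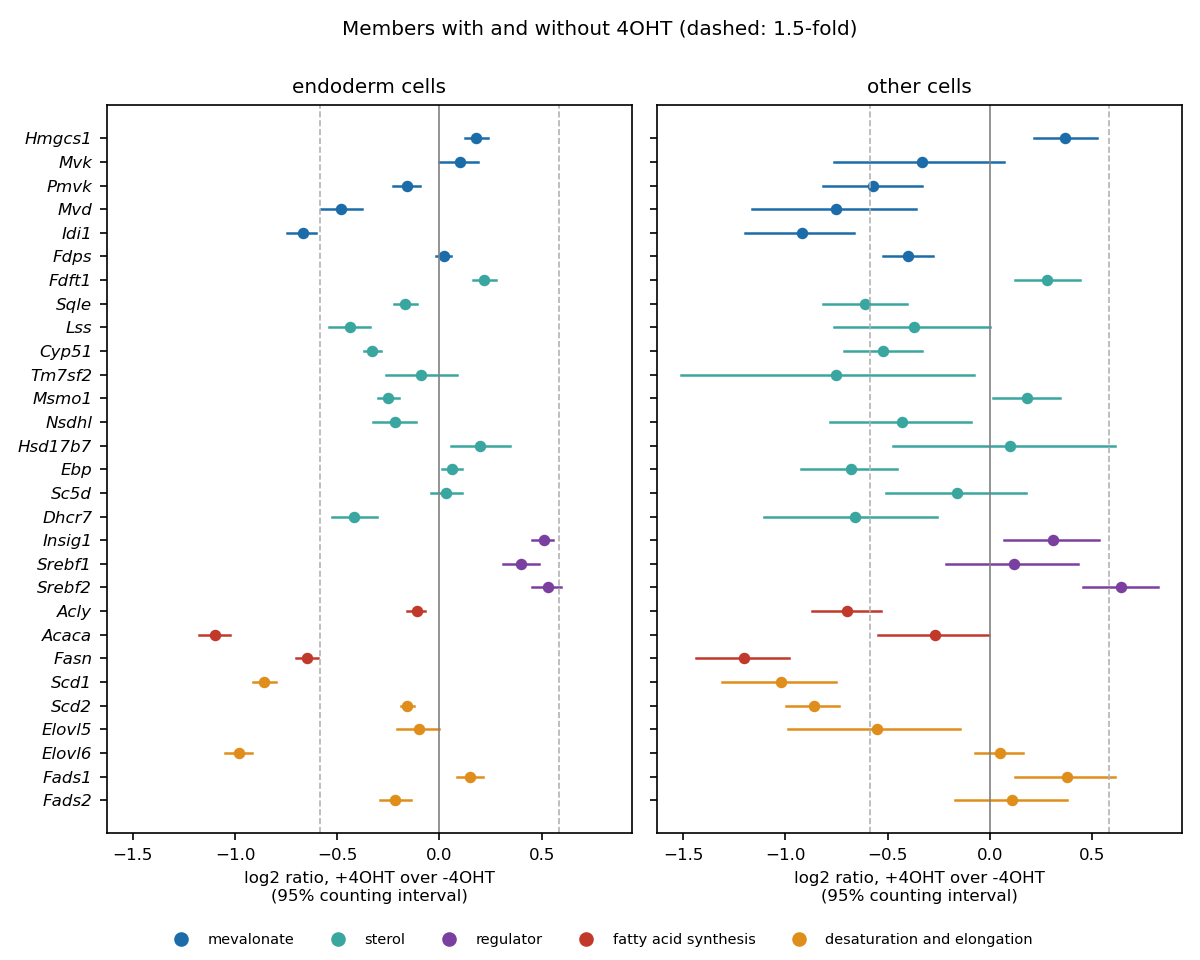
Log2 ratio of +4OHT over -4OHT (x axis, with 95% counting intervals) for each member (y axis) in endoderm cells (left) and other cells (right), coloured by role, with dashed lines at 1.5-fold. In endoderm cells Acaca, Elovl6, Scd1, Idi1 and Fasn lie beyond the left line and Insig1, Srebf1 and Srebf2 lie right of 0, and in other cells Elovl6 lies near 0.

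In other cells, 10 members were lower with 4OHT by at least 1.5-fold, where 14.6% of genes were, and Srebf2 (log2 0.64) was higher, where 31.9% were. The median was -0.40, beside 0.20 for all genes. Fasn (log2 -1.20), Scd1 (-1.02), Idi1 (-0.92) and Scd2 (-0.86) had the largest changes, and Elovl6 was at 0.05. Depth, makeup and 4OHT cannot be told apart here.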

How the data were processed

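Bulk RNA-seq libraries (NEBNext Ultra II Directional) and 10x single-cell libraries were analysed. The authors deposited raw counts per gene for 9 bulk libraries and UMI counts per barcode (Cell Ranger 6.1.2, per the file headers). The submitters' notes name mm10 and bcl2fastq. For bulk, the sources used here name no aligner, annotation or strand setting. The bulk table had 35 blank lines with 0 counts, which were left out.

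Groups came from sample titles. All 9 libraries were fitted together with edgeR 4.0.16 (TMM, quasi-likelihood, Benjamini-Hochberg, R 4.3.3) on 14185 genes left by the low-count filter, and DESeq2 1.42.0 was an alternative. CPM are counts per 1000000. Both scripts were tested on simulated data. Replicates of a group differed beyond sampling noise (chi-square per degree of freedom 18.3 to 40.3). Same-numbered DP and Pdgfra+ libraries deviated together (correlations 0.271, 0.477 and 0.321), a pairing read from the data and not stated in the labels, and Oct4+ libraries did not (-0.0728 to 0.152).

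Single-cell UMIs were summed per library and cell class (Python 3.11.15). Ratios have exact 95% intervals. Genes at 20 or more UMIs per 1000000 in either pool gave the background. Exon lengths and coordinates are from GENCODE M21 (GRCm38). Near-identical copies (BLAST 2.17.0, at least 95% identity over 200 bases) were found for 7 members (Hmgcs1, Idi1, Fdps, Fdft1, Acaca, Scd2 and Elovl6), whose values are uncertain to that extent.

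Per-library values are given for members called with an absolute log2 fold change above 1.5 and for the control points Srebf1, Srebf2, Insig1, Hmgcs1, Sqle, Acaca, Fasn, Scd1 and Scd2. Elovl6, Hsd17b7 and Mvk were added after their values were seen. Members and lists were chosen with earlier results of these data known. Alternatives were other scalings and filters, a replicate block, leaving out each library, and other cell limits and denominators.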

Additional observations from a re-analysis of the deposited data

Results flagged for a closer look

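In the single-cell libraries, 2 members moved in opposite directions with 4OHT in endoderm cells and in other cells, with counting intervals that exclude no change in either class. Msmo1, a sterol demethylation step, had a log2 ratio of -0.25 in endoderm cells and 0.18 in other cells. Ebp, the sterol isomerase, had 0.06 in endoderm cells and -0.68 in other cells. The median over all genes was 0.15 in endoderm cells and 0.20 in other cells, and both members lay below it in both classes. The sign of Ebp in endoderm cells also depends on the denominator. Without mitochondrial and ribosomal protein genes in it, the median of all genes moved by -0.08, more than the 0.06 of Ebp. There is 1 library per condition, so the difference between the cell classes was not tested, and the +4OHT other cells were 458 shallow barcodes.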

How the results depend on the processing

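Each bulk comparison was repeated under 14 alternatives. In DP against Oct4+, 15 of 19 calls held in all of them (Pmvk, Fdft1, Sqle and Elovl6 did not), and in Oct4+ against Pdgfra+ 12 of 14 did (Lss and Dhcr7 did not). Members that passed only under some alternative numbered 3 (Hmgcs1, Mvd and Tm7sf2) and 5 (Mvk, Fdft1, Sqle, Msmo1 and Acly). In DP against Pdgfra+, the number of members called went from 1 to 8 with the replicate block and ranged from 0 to 4 with a library left out (4 without DP replicate 1), and its median ranged from 0.13 to 0.38. The block left 17 and 13 members called in the other comparisons, where the numbers did not pair the samples. The members' median in Oct4+ against Pdgfra+ went from -0.51 to -0.25 with upper-quartile and -0.23 with no scaling. In endoderm cells with and without 4OHT, members past 1.5-fold numbered 3 without barcodes high in epiblast markers (an alternative added after seeing the data), and the median was -0.24 with mitochondrial and ribosomal protein genes out of the denominator. The same denominator gave 0.70 for endoderm against other cells without 4OHT. Members that changed sign were not called before or after. Ranges are over the fits with a library left out. In DP against Pdgfra+ these were Hsd17b7 (0.00 with DESeq2 and RLE, 0.01 with upper-quartile and 0.02 with no scaling, -0.10 to 0.06), Acaca (-0.21 to 0.33), Scd1 (-0.04 to 0.22), Fdps (-0.07 to 0.35), Tm7sf2 (-0.39 to 0.32) and Elovl5 (-0.07 to 0.44). In DP against Oct4+ they were Acly (-0.13 with upper-quartile and -0.15 with no scaling, -0.02 to 0.25), Elovl5 (-0.07 and -0.09, -0.10 to 0.41) and Fdps (-0.21 to 0.22). In Oct4+ against Pdgfra+ they were Hmgcs1 (0.02 and 0.05 with the same scalings), Acaca (0.02 and 0.04), Nsdhl (0.07 and 0.09, -0.49 to 0.00), Idi1 (-0.27 to 0.39), Fasn (-0.12 to 0.33), Mvd (-0.04 to 0.16) and Elovl5 (-0.05 to 0.11). The causes of these changes were not tested.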
